A study of Mus musculus with 4 samples.

Results

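The genes of glycolysis and of the response to low oxygen were followed in CD45+ immune cells of mouse skin and of skin tumors. They are 32 listed genes, all of which were found among the 31053 gene identifiers that were counted. By role they are 14 glycolytic enzymes (Hk1, Hk2, Gpi1, Pfkl, Pfkp, Aldoa, Aldoc, Tpi1, Gapdh, Pgk1, Pgam1, Eno1, Pkm and Ldha), 3 transporters (Slc2a1, Slc2a3 and Slc16a3), 3 regulators of glycolytic flux (Pfkfb3, Pfkfb4 and Pdk1), 3 genes of oxygen sensing (Hif1a, Egln1 and Egln3) and 9 targets of the hypoxia response (Vegfa, Adm, Bnip3, Bnip3l, Ndrg1, Ankrd37, P4ha1, Mxi1 and Higd1a). Aldoa stands under 2 identifiers, of which 1 held 45426 UMIs in the gated cells and was used, while the other held 19. The list was drawn up with earlier results of these data known.

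The 4 libraries came from 2 control skins of C57BL/6 mice that had received no tumor cells (C1 and C2) and from 2 skin tumors in C57BL/6 mice (T1 and T2). The tumors grew after subcutaneous injection of 2323 cells, a line obtained from a tumor graft of a mouse model in which an inducible Cre acts under the promoter of keratin 14. All tumor samples thus stem from 1 line. Tissue was digested with collagenase IV at 37 °C, live CD45+ cells were sorted, and each sample gave 1 droplet library of 3′ RNA, counted as unique molecular identifiers (UMIs). For the mice injected with tumor cells, the paper names both sexes and gives an age range in weeks. It states neither for the control mice. The labels give neither the age nor the sex of the animals behind the 4 libraries.

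Glycolysis splits glucose into pyruvate in the cytosol, and lactate dehydrogenase turns pyruvate into lactate when the mitochondria do not take it up. In low oxygen the prolyl hydroxylases encoded by Egln genes stop marking the protein of Hif1a for degradation, and the factor then binds short motifs before its targets, among them glucose transporters, nearly every enzyme of glycolysis, Vegfa, Bnip3 and Egln3 itself. Immune cells use the same genes for another purpose, since activated T cells, neutrophils and inflammatory macrophages raise glycolysis with oxygen present. The amount of Hif1a mRNA is not a measure of the protein's activity, which is set mainly by degradation.

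The libraries held 3499 and 3862 cells for the control skins and 5176 and 2258 cells for the skin tumors, with 34893543 to 73904272 UMIs each. After filters, 12395 cells were used, of which 7882 (63.6%) passed a marker gate for 1 immune cell type. Gates used lineage markers and none of the 32 genes, such as C1q genes for macrophages or Cd3 genes and Cd4 without Cd8 or Foxp3 for CD4 T cells, and their thresholds were set with the data seen. Between 1 and 7 barcodes were shared by any pair of libraries. A level is given as UMIs of the gene per 10,000 UMIs of all genes, summed over the gated cells of that type in a library. The fitted fold changes also scale the libraries by edgeR's TMM factors, which places log2 ratios of levels above the fitted values by 0.18 in macrophages, 0.21 and 0.25 in type 2 and type 1 conventional dendritic cells (cDC2 and cDC1), 0.13 in CD8 T cells and 0.12 in migratory dendritic cells (mDC), with a shift of -0.29 in mast cells, and within 0.1 of them in the other types. In each of 11 cell types with at least 10 cells in every library, tumor was compared with control on UMIs summed per library with edgeR's quasi-likelihood test. Adjusted p values below are from that test unless DESeq2, an alternative or the test of a difference between cell types is named. The Benjamini-Hochberg adjustment runs over all genes tested in the fit, and a gene is called at an adjusted p under 0.05. With 2 libraries against 2, an exact permutation test of a single gene could not go below p = 0.333. Langerhans cells, dendritic epidermal T cells (DETC) and dermal gamma delta T cells were not compared, as 1 or both tumors held fewer than 10. Type 2 innate lymphoid cells (ILC2) met this minimum, with 15 and 14 cells in T1 and T2, but were left out as shallow. Their median depth there was 2834 and 2415 UMIs per cell, near the 2917 of neutrophils in T2, which were compared.

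Tumor T1 stood apart from the other libraries in a few genes, 1 of them among the 32. Of 4925 genes tested in all of 6 main cell types, 4 were at least 2 times above the highest of the other 3 libraries in 5 or more types in T1, and 14 were at least 2 times below the lowest. No gene did so in C1, C2 or T2. Eno1, which encodes enolase, was among the 4. In macrophages Eno1 stood at 0.747 and 0.428 UMIs per 10,000 in C1 and C2, at 2.06 in T1 and at 0.513 in T2, and over the 6 types T1 lay 1.9 to 3.16 times above the next library. Eno1b, a near-identical copy on another chromosome, went the other way, with 0.258, 0.205, 0.0431 and 0.615 in the same libraries. Of the 60-base windows in the 3′ ends of Eno1 transcripts, 86.5% also occur in another counted gene, and 56.6% of those of Gapdh do, so that reads of these genes could be divided between copies. Eno1 and Gapdh are therefore uncertain. With all 4 libraries and the filter on low counts, neither was called in a cell type. Without that filter Eno1 was called higher in macrophages, cDC2 and CD8 T cells. The share was 8.2% for Aldoa and 0 for each of the others.

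**Figure D1:**
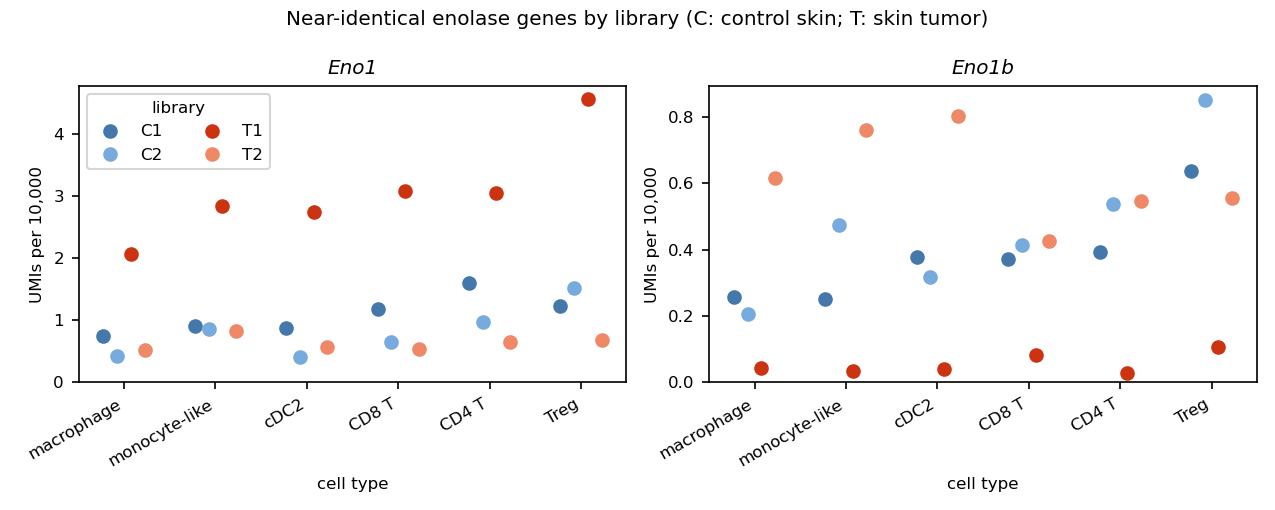
Level of Eno1 (left) and of its near-identical copy Eno1b (right), in UMIs per 10,000 on the vertical axis, in 6 cell types on the horizontal axis, with 1 point per library (C1 and C2 control skins, T1 and T2 skin tumors). T1 is the highest library for Eno1 and the lowest for Eno1b in every one of the 6 types, and T2 does not follow it.

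The 32 genes were not spread evenly over the cell types. As means over the 4 libraries, 15 of them were highest in regulatory T cells (Treg), 7 in neutrophils, 3 in mast cells and 1 in each of 7 other types. In Treg these were mainly enzymes and hypoxia targets: Gpi1, Aldoa, Tpi1, Gapdh, Pgk1, Eno1, Pkm, Pdk1, Bnip3, Bnip3l, Egln1, Egln3, P4ha1, Mxi1 and Higd1a. These means and their SD pool control skins and tumors, so that the SD also holds the difference between the groups. In Treg, Egln3 ranged from 0.278 to 1.98, and Eno1 stood at 4.56 in T1 and at 0.684 in T2. For most genes the leading type overlapped with the next one. The lowest library of the leading type exceeded the highest library of the next type for 4 genes, which are given below as a description.

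Neutrophils, which rely on glycolysis for their energy, had the highest mean of all 3 transporters. Slc2a3, a glucose transporter of high affinity, ranged from 7.01 to 17.5 UMIs per 10,000 in neutrophils, with a mean of 12.1 ± 4.72 (SD, n = 4), against 1.42 ± 0.507 in mast cells, the next type, and 0.107 in macrophages, the lowest. Slc16a3, which exports lactate, ranged from 5.92 to 10.3 in neutrophils and had a mean of 1.94 ± 0.479 in monocyte-like cells and of 0.0853 in natural killer (NK) cells. Slc2a1, the common glucose transporter, was also highest in neutrophils (2.17 ± 0.759), but its lowest library there (1.25) lay within the range of monocyte-like cells (0.896 to 1.9).

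Mast cells led for Ndrg1, a stress response gene that hypoxia raises in many cell types, with 7.54 to 12.6 and a mean of 9.8 ± 2.11 against 3.96 ± 1.3 in mDC. Hk1, the housekeeping hexokinase, stood at 1.21 to 2.36 in mast cells and at 0.795 ± 0.174 in CD4 T cells. Hif1a was highest in CD4 T cells (8.95 ± 3.01) and Treg (7.83 ± 1.49), which overlapped, and lowest in cDC1 (1.21). Vegfa, the growth factor of blood vessels, was highest in NK cells (2.9 ± 0.686) and neutrophils (2.56 ± 1.15) and lowest in CD8 T cells (0.0706). In Langerhans cells, left out of these means, Ndrg1 reached 10.9 and 9.2 and Hk2, the inducible hexokinase, 5.19 and 4.46 in C1 and C2. DETC held 3.73 and 3.6 of Hk2 in the same libraries.

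**Figure D2:**
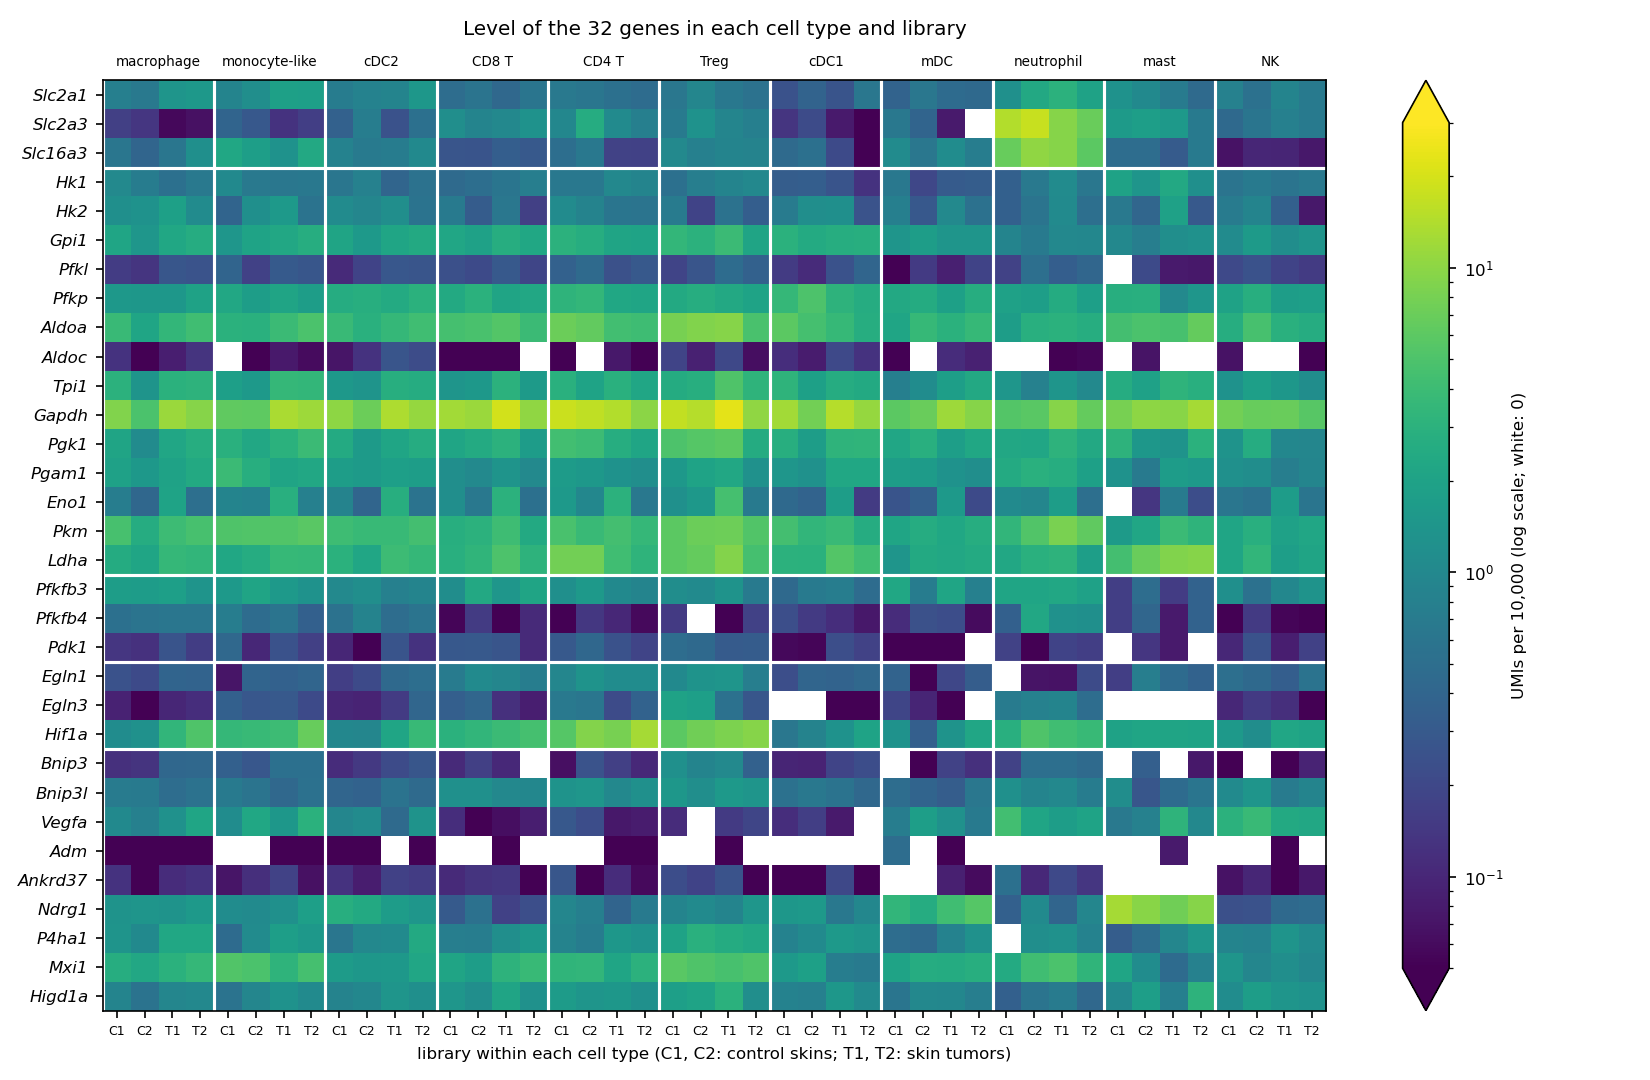
Level of each of the 32 genes (rows, grouped by role as transporters, enzymes, flux regulators, oxygen sensing and hypoxia targets) in 11 cell types and the 4 libraries of each (columns, C1, C2, T1 and T2), as UMIs per 10,000 on a logarithmic color scale, with 0 in white. Slc2a3 and Slc16a3 stand out in the neutrophil columns and Ndrg1 in the mast cell columns, while Gapdh, Aldoa and Ldha are high in most types and Adm is near 0 in all.

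Between tumor and control, the genes were tested in 292 pairs of a gene and a cell type, and 9 pairs were called, 1 of them higher and 8 lower in tumors. They belong to 8 genes, Egln3 in 2 cell types, and the other 24 genes were called in no cell type. Both tumors lay above both control skins in 89 pairs and below in 60, while over all genes of a cell type 15.9% to 41.7% lay above and 11.4% to 37.9% below, so that as shares of the 292 pairs these counts lie within the ranges of all genes. The called pairs lay in CD4 T cells (Ldha, Pgk1, Slc16a3, Vegfa), Treg and CD8 T cells (Egln3), cDC2 (Hif1a, Ndrg1) and cDC1 (Mxi1), and macrophages had none.

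CD4 T cells had the most calls, and all 4 were lower in tumors. Ldha, the lactate dehydrogenase subunit of glycolytic tissues, stood at 7.69 and 7.65 UMIs per 10,000 in the control skins and at 4.22 and 3.18 in the tumors. The control skins were nearly equal and both lay well above the tumors, a log2 fold change of -1.11 ± 0.238 (SE, adjusted p = 0.0207). Pgk1, the first enzyme of glycolysis that yields ATP, fell from 4.3 and 4.02 to 2.71 and 2.16, a log2 fold change of -0.84 ± 0.225 (adjusted p = 0.0499). Slc16a3 went from 0.499 and 0.652 to 0.177 and 0.174, -1.73 ± 0.354 on the log2 scale (adjusted p = 0.0169), with 15 to 38 UMIs per library. Vegfa, with 7 to 22 UMIs per library, went from 0.289 and 0.227 to 0.0747 and 0.0813, -1.82 ± 0.484 (adjusted p = 0.0482). The groups did not overlap for any of these genes.

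The 4 called genes were 4 of 28 tested in CD4 T cells, where 3.95% of 7475 genes were called lower, 4.86% higher and 8.8% in either direction. Both tumors lay below both control skins for 18 of the 28 genes and above for 2, against 21.9% and 31.9% of all genes. The median log2 fold change of the tested genes was -0.55 and that of all genes 0.04. At an unadjusted p under 0.05, 13 of 28 genes passed, 12 of them lower (46.4%, against 24.2% of all genes). Those lower by this looser measure included Aldoa (7.19 and 6.52 against 4.37 and 4.14, adjusted p = 0.0749), Hk2 (1.09 and 0.879 against 0.598 and 0.581, adjusted p = 0.0809), Pfkp (3.21 and 3.49 against 2.24 and 2.17, adjusted p = 0.0875) and Gpi1 (3.07 and 2.72 against 2.08 and 2.03, adjusted p = 0.148). P4ha1, a collagen prolyl hydroxylase that hypoxia raises, went the other way, with 0.88 and 0.737 against 1.48 and 1.32 (adjusted p = 0.108).

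These calls rest on all 4 libraries and on 36 to 116 cells each. None of the 4 remained called without T1 or without T2, Slc2a3 alone was called without C1, and Ldha and Slc16a3 were called without C2, all with the same direction. Pgk1 kept its call in 2 of 12 alternatives and Vegfa in 3 of 11, and both lost it with DESeq2, the replicate block, doublets kept and all cells of at least 500 UMIs. Ldha kept its call in 8 of 12 alternatives and Slc16a3 in 7 of 12. Under stricter gates Ldha (-1.04, adjusted p = 0.0512) and Pgk1 (-0.9, adjusted p = 0.0604) were not called, while Slc16a3 and Vegfa were. DESeq2 called Ldha alone of the 4. A cell with any UMI of Top2a or Mki67 was taken as cycling, a mark that a deeply read cell passes more easily. The shares so marked need not be those of dividing cells. For CD4 T cells they were 47.1% and 47.2% in the control skins and 41.4% and 43% in the tumors. With cycling cells left out Ldha was called (adjusted p = 0.0165), while Pgk1 (adjusted p = 0.144) and Slc16a3 (adjusted p = 0.154) were not and Vegfa was not tested. C1q transcripts, which mark macrophages, summed to 0.276 and 0.255 against 0.644 and 1.05 UMIs per 10,000 in these cells with no C1q gene at 0. The 9 genes of a list that enzymatic dissociation is known to raise summed to 32.9 and 20.8 against 65.3 and 68.6, and the Cd3 genes to 8.70 and 10.5 against 17.0 and 18.0. A regulatory T cell with a Cd4 UMI but no Foxp3 UMI also falls into this gate. Foxp3 was lower in the gated Treg of tumors (5.39 and 4.8 against 2.94 and 2.59 UMIs per 10,000). The part of these lists and of such cells in the result was not tested.

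**Figure D3:**
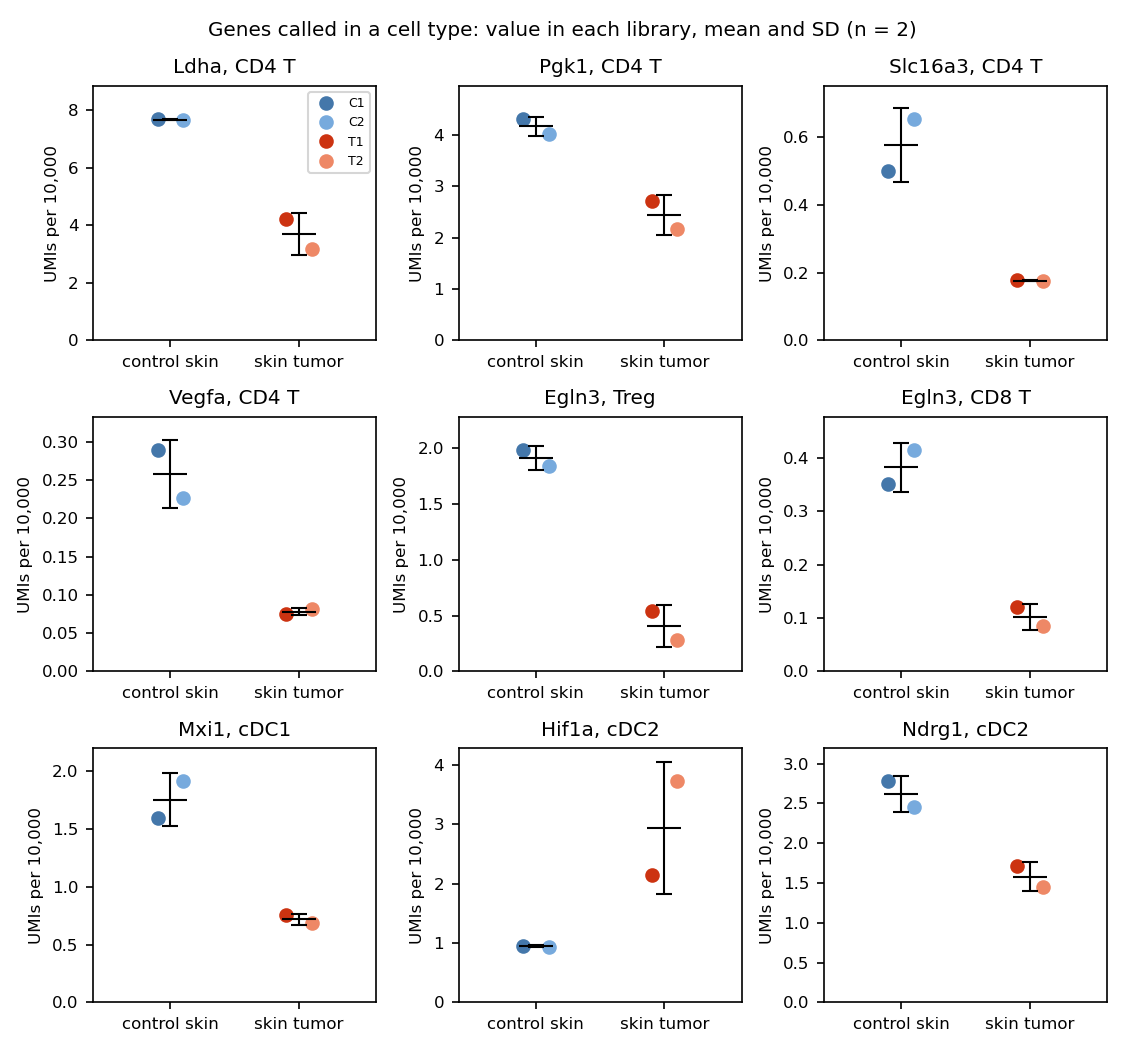
Level of the 9 called pairs of a gene and a cell type, in UMIs per 10,000 on the vertical axis (from 0), in control skin and skin tumor, with 1 point per library and the mean and SD of 2 libraries as a bar. Hif1a in cDC2 lies higher in both tumors, the other 8 pairs lie lower in both, and the groups overlap in none.

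The sequences before these genes are shown because the hypoxia factor binds the letters ACGTG or GCGTG. Searched on both strands in the 250 bases before the RefSeq start (GRCm38.p6), at least 1 of the 2 motifs was present for 24 of the 29 genes with a promoter in the table (82.8%), against 38.6% of 27025 genes. ACGTG was present for 51.7% against 16.6% and GCGTG for 55.2% against 28.2%, and the median GC content was 64.0% against 52.0%. For the 29 genes the promoter with the most annotated transcript starts within 100 bases was taken, but for all genes the first one listed. The shares are thus of unlike promoters. Hypoxia targets were also listed by design, so a higher share is not an independent result. The palindrome CACGTG counts on both strands. The 4 genes called in CD4 T cells and Egln3 are printed 5′ to 3′ along the gene's strand, ending 1 base before the start, with capitals for every match, read on either strand.
Ldha (chr7:46845554-46845803, plus strand): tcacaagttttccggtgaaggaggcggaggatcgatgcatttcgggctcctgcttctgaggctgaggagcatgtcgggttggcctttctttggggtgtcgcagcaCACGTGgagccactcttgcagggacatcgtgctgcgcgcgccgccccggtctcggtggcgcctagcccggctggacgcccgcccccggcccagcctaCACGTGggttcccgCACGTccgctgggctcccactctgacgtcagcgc
Pgk1 (chrX:106186850-106187099, plus strand): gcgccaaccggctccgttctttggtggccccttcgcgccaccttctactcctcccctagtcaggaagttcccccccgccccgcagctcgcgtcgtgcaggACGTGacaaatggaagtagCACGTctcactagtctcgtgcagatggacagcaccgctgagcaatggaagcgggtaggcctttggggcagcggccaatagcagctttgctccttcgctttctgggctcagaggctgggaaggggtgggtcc
Slc16a3 (chr11:120948817-120949066, plus strand): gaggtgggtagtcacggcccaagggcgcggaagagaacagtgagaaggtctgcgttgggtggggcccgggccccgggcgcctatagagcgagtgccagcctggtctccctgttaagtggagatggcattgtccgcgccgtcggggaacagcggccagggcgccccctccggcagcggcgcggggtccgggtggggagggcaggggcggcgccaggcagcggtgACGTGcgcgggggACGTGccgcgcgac
Vegfa (chr17:46032378-46032627, minus strand): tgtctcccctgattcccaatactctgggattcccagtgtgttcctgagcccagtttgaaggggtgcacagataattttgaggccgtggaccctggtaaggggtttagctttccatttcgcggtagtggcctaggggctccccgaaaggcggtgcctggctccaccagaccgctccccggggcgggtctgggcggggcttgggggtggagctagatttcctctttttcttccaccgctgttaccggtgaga
Egln3 (chr12:54203875-54204124, minus strand): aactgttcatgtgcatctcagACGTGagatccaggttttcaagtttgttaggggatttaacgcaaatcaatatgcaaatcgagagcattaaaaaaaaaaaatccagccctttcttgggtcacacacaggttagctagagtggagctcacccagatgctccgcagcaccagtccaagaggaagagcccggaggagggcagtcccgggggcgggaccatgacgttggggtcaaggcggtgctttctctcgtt
Ldha held 3 stretches in capitals, at 145, 48 and 34 bases before the start, Pgk1 held 2 at 150 and 131, and Slc16a3 held 2 at 27 and 14, so that all of their matches were of ACGTG. Egln3 held 1 at 229 bases. Vegfa had no match in this window. A match is a run of letters, not a bound site, and no binding was measured here.

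Egln3, a prolyl hydroxylase that marks the Hif1a protein when oxygen is present, was the only 1 of the 32 genes called in more than 1 cell type. In Treg it stood at 1.98 and 1.84 UMIs per 10,000 in the control skins, from 53 and 41 UMIs, and at 0.539 and 0.278 in the tumors, from 51 and 13 UMIs. Both tumors lay well below, a log2 fold change of -2.14 ± 0.353 (SE, adjusted p = 0.00864). In CD8 T cells it stood at 0.351 and 0.415 against 0.12 and 0.0852, -1.89 ± 0.379 (adjusted p = 0.0255), from 4 UMIs in T2 and 22 to 52 in the others. CD4 T cells had 0.657 and 0.623 against 0.215 and 0.372 (-1.21 ± 0.356, adjusted p = 0.0687). In cDC2 the fold change was positive (1.26 ± 0.553, adjusted p = 0.205), with 0.0994 and 0.0941 against 0.151 and 0.416. Beyond the tested types, ILC2 of the control skins held 1.97 and 1.61 of Egln3.

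The call in Treg was 1 of 27 genes tested, beside 2.64% of 5299 genes (0.944% lower), and it was kept under all 12 alternatives, with log2 fold changes of -2.75 to -1.74 and adjusted p of 4.41e-07 to 0.0296. Foxp3, the gene that set the gate, was itself lower in tumor Treg (5.39 and 4.8 against 2.94 and 2.59 UMIs per 10,000). In Treg the dissociation list summed to 23.7 and 19.4 against 29.4 and 71.9, and the C1q genes to 0.0748 and 0.224 against 0.528 and 1.30 with 1 of the 3 at 0 in C1. For CD8 T cells the call was 1 of 29, beside 7.59% of 7927 genes (4.29% lower and 3.31% higher). Both tumors lay below both control skins for 6 of the 29 genes and above for 7, beside 19.9% and 36.6% of all genes. It was lost without C1, without C2 and with cycling cells left out, with adjusted p up to 0.212. The share of CD8 T cells marked as cycling was 45%, 43.2%, 75% and 40.5% in C1, C2, T1 and T2. Their median depths were 9912, 11207.5, 14185.5 and 10018 UMIs per cell. With cycling cells left out the log2 fold change of Egln3 was -1.34 (adjusted p = 0.212). In that setting P4ha1 was the gene called instead, higher in tumors (1.48, adjusted p = 0.00409). In CD8 T cells the C1q genes summed to 0.121 and 0.227 against 0.504 and 1.11 and the dissociation list to 34.7 and 25.9 against 47.0 and 49.0. The part of these lists and of Foxp3 in the results was not tested.

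In Treg the other genes did not move together. The median log2 fold change of the 27 genes was -0.04, that of all genes 0.01, both tumors lay above both control skins for 4 of them and below for 3, beside 23.4% and 22.5% of all genes, and 1 gene passed an unadjusted p under 0.05 (3.7%, against 15.9% of all genes). T1 and T2 lay far apart for several enzymes, with Ldha at 6.03 and 6.63 in the control skins, 9.19 in T1 and 4.53 in T2, and Pgk1 at 4.98 and 5.56, 6.02 and 2.59. Without T1, Egln3, Bnip3 and Pgk1 were called lower. Without T2, Egln3 was called lower and Tpi1 higher, and so was Eno1, whose call then rests on T1 (4.56, against 0.684 in T2), the library that stood apart for this gene.

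cDC2, the dendritic cells that present antigen mainly to CD4 T cells, held the only call upward. Hif1a stood at 0.958 and 0.941 UMIs per 10,000 in the control skins and at 2.15 and 3.73 in the tumors, so that both tumors lay above, with a log2 fold change of 1.42 ± 0.304 (adjusted p = 0.0399). Egln1, the main oxygen sensor among the prolyl hydroxylases, had 0.163 and 0.213 against 0.445 and 0.508 (1.1 ± 0.277, adjusted p = 0.0599). Ndrg1 fell, from 2.78 and 2.46 to 1.71 and 1.45, a log2 fold change of -0.94 ± 0.192 (adjusted p = 0.0353). These were 2 of 31 genes tested, beside 6.9% of 8855 genes called (2.98% higher and 3.92% lower). Both tumors lay above both control skins for 17 of the 31 and below for 3, beside 41.7% and 18.4% of all genes, and the share at an unadjusted p under 0.05 was 25.8% against 25.9%.

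Both calls in cDC2 were lost without C1 and without C2, with adjusted p up to 0.285 for Hif1a and 0.281 for Ndrg1, and that of Ndrg1 also under stricter gates. Leaving out T1 or T2 leaves 1 tumor in the fit. The log2 fold change of Hif1a was 1.81 without T1 and 0.88 without T2. That of Ndrg1 was -1.02 and -0.91. For Vegfa it was -1.46 without T2, where T1 had 0.454 and T2 1.34. The dissociation list summed to 36.2 and 41.6 against 78.0 and 105.5 UMIs per 10,000 in cDC2, and its part in the result was not tested.

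Macrophages were the most numerous cells in the tumors, with 59 and 182 cells in the control skins and 1890 and 632 in the tumors, and all 32 genes were tested in them. None was called, beside 8 of 11925 genes (0.0671%, with 0.0419% higher and 0.0252% lower). At an unadjusted p under 0.05, 9 of 32 passed, 6 higher and 3 lower (28.1%, against 11.8% of all genes), and DESeq2 called 2. No share of all genes called by DESeq2 is given. Both tumors lay above both control skins for 18 genes and below for 3, beside 36.2% and 11.4% of all genes. The median log2 fold change was 0.34 for the 32 genes and 0.03 for all.

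The largest differences in macrophages were in Hif1a and Bnip3. Hif1a had 1.12 and 1.28 UMIs per 10,000 in the control skins and 3.35 and 5.09 in the tumors, 1.64 ± 0.288 on the log2 scale (adjusted p = 0.0977). Bnip3, which marks mitochondria for removal, had 0.12 and 0.13 against 0.426 and 0.433, 1.58 ± 0.242 (adjusted p = 0.0651). In both genes the control skins were close to each other and both tumors lay above. DESeq2 called these 2 genes (adjusted p = 8.38e-05 and 0.00386), as did the test above without T1 and without T2, when the spread rested on 3 libraries. Without T1, Slc16a3 and Vegfa were called higher as well. Without T2, Eno1 was, and that call rests on T1, the library that stood apart for this gene.

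Other genes of macrophages passed only the unadjusted measure. Slc2a1 had 0.793 and 0.664 against 1.39 and 1.52 (0.83 ± 0.204, adjusted p = 0.177), while Slc2a3 had 0.166 and 0.137 against 0.0572 and 0.0673 (-1.45 ± 0.331, adjusted p = 0.159), so that the glucose transporters went opposite ways. Hk1 and Bnip3l were the others that were lower, and P4ha1, Pfkl and Egln1 the others that were higher. Ldha had 2.58 and 2.17 against 3.55 and 3.41 (0.37 ± 0.195, adjusted p = 0.532). Of the 14 enzymes, Eno1 and Gapdh included, 13 had a positive log2 fold change, with a median of 0.3. Cycling macrophages made up 17% and 19.2% in the control skins and 36.7% and 32% in the tumors, and Bnip3 was called with cycling cells left out (1.92, adjusted p = 0.0392) while Hif1a was not.

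Some macrophages of the tumors carried a UMI of Arg1, the arginase of alternatively activated macrophages, 222 of 1890 cells in T1 and 181 of 632 in T2. In both tumors these cells had a higher level than the other macrophages for 30 of the 32 genes, against 24% of 11924 genes. Bnip3 was at 1.0 against 0.341 in T1 and at 0.643 against 0.322 in T2. Pfkfb3 and Pfkfb4 were the exceptions. A second count kept only cells with at least 10,000 UMIs, each thinned to 10,000. It left out 331 macrophages in T1 and 90 in T2. It gave 28 genes, against 23.5% of all genes, with Hk1 and P4ha1 as further exceptions.

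The fold change of Ldha had opposite signs in CD4 T cells and macrophages. The difference of the tumor effect between them, tested with the library in the model, was -1.54 ± 0.264 on the log2 scale (adjusted p = 0.0468). Ldha was the only 1 of 31 genes tested that was called, beside 0.756% of 9388 genes. At an unadjusted p under 0.05 in that test 17 of the 31 differed, all but Hk1 with the lower effect in CD4 T cells. No share of all genes was computed for that count. Vegfa (-2.52 ± 0.441, adjusted p = 0.0503), Slc16a3 (-2.37 ± 0.464, adjusted p = 0.0649) and Hif1a (-1.2 ± 0.252, adjusted p = 0.0754) did not pass. Ldha was called in 3 of 9 alternatives, with differences of -1.72 to -1.36 and adjusted p of 0.0221 to 0.128, and was not called without C1, C2 or T2, under stricter gates, with doublets kept or with all cells of at least 500 UMIs. Against the other 9 cell types no gene of the 32 differed from macrophages at an adjusted p under 0.05 in this edgeR test, with 0 to 8 genes a type at an unadjusted p under 0.05, for which no share of all genes was computed. Over all genes 0.488% differed in Treg and 0.257% in cDC1, and at most 1.72% in any other type.

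In cDC1, which present antigen to CD8 T cells, 1 of 25 genes was called, beside 3.65% of 6517 genes (2.38% lower). Both tumors lay above both control skins for 9 of the 25 and below for 6, beside 40.1% and 17.0% of all genes. Mxi1, an antagonist of Myc, stood at 1.59 and 1.91 UMIs per 10,000 in the control skins and at 0.753 and 0.686 in the tumors, a log2 fold change of -1.52 ± 0.293 (adjusted p = 0.036). T2 held only 12 of these cells, and the call was lost without C1 and without C2, with adjusted p up to 0.207. At an unadjusted p under 0.05, 5 genes were lower (Pfkp, Aldoa, Slc16a3, Ndrg1 and Mxi1) and 2 higher (Pdk1 and Hif1a), 28.0% of those tested against 23.3% of all genes.

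Monocyte-like cells, defined by Ly6c2 and related genes with few C1q transcripts, had no call among 30 genes, beside 0.374% of 8278 genes (0.29% higher and 0.0846% lower). Of them 6 passed an unadjusted p under 0.05 (against 9.8% of all genes), and DESeq2 called 0. Tpi1 had 1.83 and 1.55 against 3.57 and 3.49 UMIs per 10,000 (0.99 ± 0.25, adjusted p = 0.188). Slc2a1 (0.896 and 1.19 against 1.9 and 1.83) and Slc2a3 (0.394 and 0.293 against 0.129 and 0.163) lay on opposite sides of the control skins, as in macrophages.

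Neutrophils, mast cells, NK cells and mDC had 12 to 104, 16 to 35, 16 to 101 and 10 to 66 cells per library, and no gene of the 32 was called in any of them. The edgeR test had 1, 5, 4 and 3 of the genes at an unadjusted p under 0.05 (3.7%, 27.8%, 17.4% and 13.6%, against 5.36%, 19.5%, 14.6% and 11.9% of all genes), and DESeq2 called 0 in each type. Over all genes 0% were called in neutrophils and in mDC, 3.54% in mast cells and 1.23% in NK cells. In neutrophils Slc2a3 had 14.3 and 17.5 against 9.48 and 7.01 (-1.01 ± 0.284, adjusted p = 0.612). Mast cells had Ldha at 4.43 and 7.01 against 9.03 and 9.34 and Pkm at 1.64 and 2.22 against 3.93 and 3.24, with 10 to 124 UMIs behind these values. In NK cells Hk2 had 0.721 and 0.893 against 0.356 and 0.076 (adjusted p = 0.175) and Pgk1 1.34 and 2.63 against 0.971 and 0.931 (adjusted p = 0.172).

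Across cell types P4ha1 and Hif1a were mostly positive, though the types of a library share its mouse and its handling. Both were picked with their values seen, and no share of all genes over several types stands beside their counts. P4ha1 was tested in 11 types, had a positive log2 fold change in 11 (0.02 to 1.7) and both tumors above both control skins in 9. It was called in none except under alternatives, and outside these its lowest adjusted p was 0.108. It was called higher in CD8 T cells with cycling cells left out (1.48, adjusted p = 0.00409). The edgeR test with no filter on low counts called it higher in macrophages (0.84, adjusted p = 0.0174) and cDC2 (0.87, adjusted p = 0.00672). The other alternatives that called P4ha1 left 1 library in a group. Its log2 fold change was 1.44 in cDC2 without T1 and 7.95 in neutrophils without C2. Hif1a was positive in 10 of 11 types (-0.14 to 1.64), with both tumors above in 8, and was called in cDC2. Slc2a3 was positive in 1 of the 10 types it could be tested in, and both tumors lay below both control skins in 6 of the 11. The median log2 fold change of the tested genes without T1 was -0.57 in CD4 T cells, -0.47 in Treg, -0.39 in cDC1 and -0.3 in CD8 T cells. With all 4 libraries it was -0.55, -0.04, 0.06 and -0.02. Without T1 it was also negative in NK cells, neutrophils and mDC, and positive in macrophages, monocyte-like cells, cDC2 and mast cells. For all genes the median without T1 was 0.02 in CD4 T cells, -0.01 in Treg, -0.05 in cDC1 and 0.01 in CD8 T cells. No such median was computed without T2. The sign of the glycolytic enzymes differed between genes. Tpi1 and Ldha were positive in 8 of 11 types, Gapdh in 9 of 11 and Eno1 in 10 of 10, these last 2 being uncertain, while Pgk1 was positive in 6, Aldoa in 5, Pgam1 and Pkm in 4 and Pfkp in 2 of 11.

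**Figure D4:**
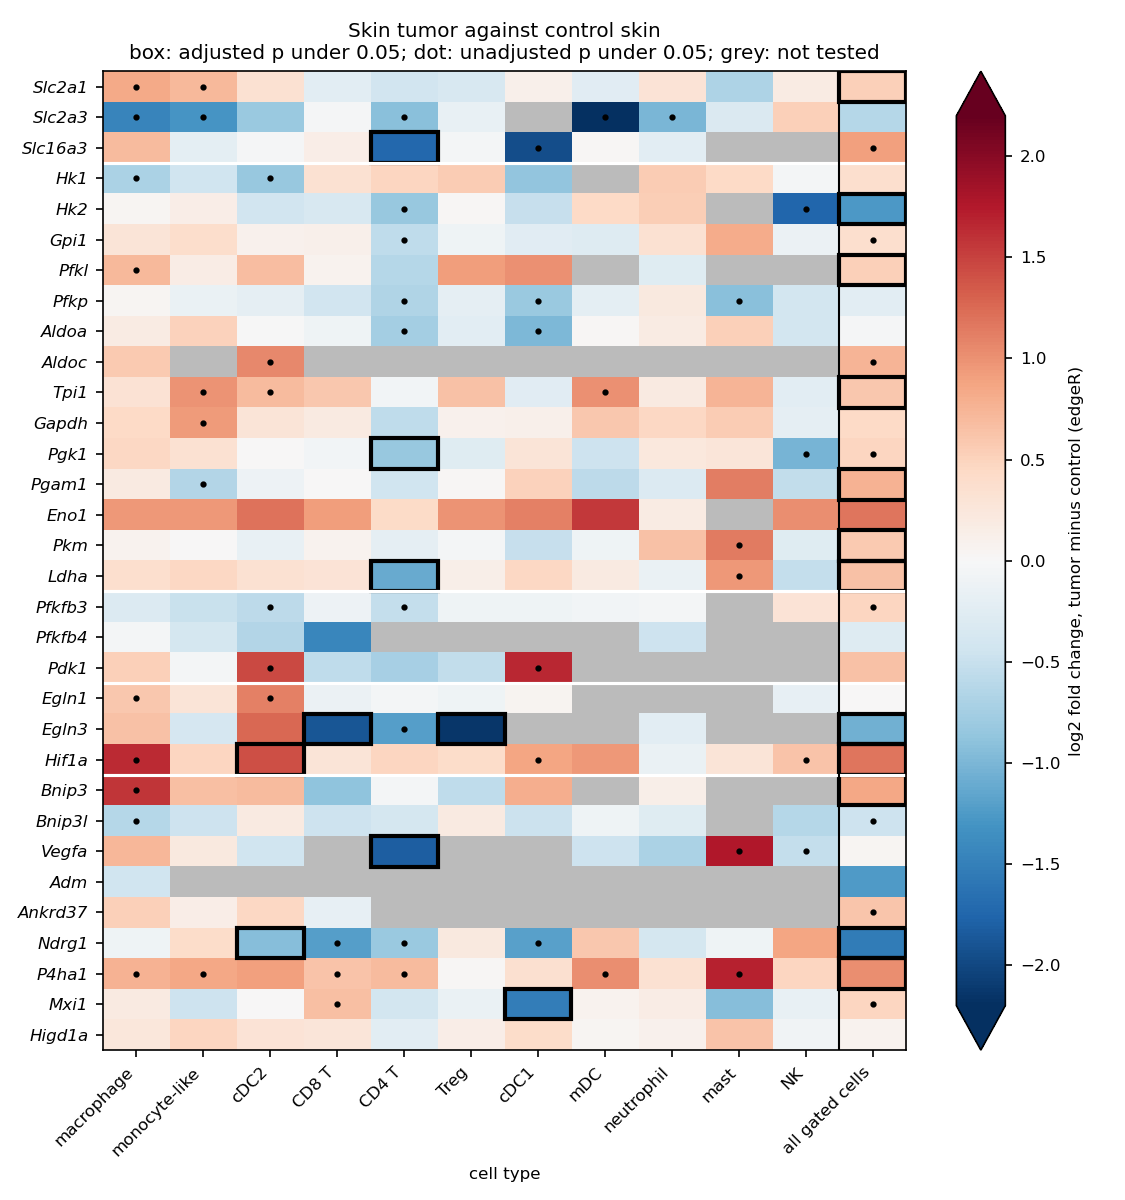
Log2 fold change of skin tumor against control skin (edgeR, blue lower and red higher in tumors) for the 32 genes (rows) in 11 cell types and in all gated cells together (columns), with a box for an adjusted p under 0.05, a dot for an unadjusted p under 0.05 and grey for pairs that were not tested. The columns of CD4 T cells and NK cells are mostly blue, those of macrophages and mast cells mostly red, and the rows of Hif1a and P4ha1 are red in nearly all columns.

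Summed over all gated immune cells, 9 of the 32 genes were called higher (Slc2a1, Pfkl, Tpi1, Pgam1, Pkm, Ldha, Hif1a, Bnip3 and P4ha1) and 3 lower (Hk2, Egln3 and Ndrg1), beside 13.3% and 17.0% of 14498 genes. Such sums mix the cell make-up of a library with the level in a cell, and fewer cells of a type and less RNA per cell cannot be told apart in them. Ndrg1 had 4.44 and 3.47 UMIs per 10,000 in the control skins and 1.27 and 1.6 in the tumors (-1.54 on the log2 scale), and Hk2 had 3.04 and 2.63 against 1.6 and 0.912 (-1.27). Langerhans cells, in which both genes were high, numbered 397 and 341 in the control skins and 1 and 4 in the tumors. With the 11 compared cell types weighted equally, 10 of the 12 called genes kept their sign and 7 kept groups that did not overlap. The log2 ratio was then 0.03 for Hk2, -0.03 for Pgam1 and -0.13 for Ndrg1, against 0.75 for P4ha1 and 0.58 for Hif1a. Only the 32 genes were weighted in this way, so no share of all genes stands beside the 10 and the 7. The 12 genes had been picked by their calls in the same libraries. Without C1, 1 of the 12 was called (Ndrg1), and without C2, 4 were.

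A further 59 genes of glycolysis and of the hypoxia response were read from the same fits. In tumors 1 of 30 was called higher and 2 lower in cDC2 (6.9% of all genes called), 3 and 3 of 32 in CD8 T cells (7.59%), and 3 and 2 of 31 in CD4 T cells (8.8%). In Treg 1 of 22 was higher (2.64%), in cDC1 1 of 22 was higher (3.65%), in NK cells 1 of 21 was lower (1.23%), and none was called in the other types. Of these genes 4 were called in 2 or more types. Hilpda, a lipid droplet protein that hypoxia raises, was lower in CD8 T cells (1.36 and 1.17 against 0.518 and 0.469), CD4 T cells (2.77 and 2.49 against 0.906 and 1.47) and NK cells. Epas1, the sister factor of Hif1a, was higher in CD8 T cells (0.0202 and 0.0189 against 0.79 and 0.575) and in CD4 T cells, where it had 0 and 0.0283 against 0.523 and 0.65. Bhlhe40, a transcriptional repressor that hypoxia can raise, was higher in CD4 T cells (2.8 and 3.23 against 5.03 and 8.94) and Treg (0.823 and 0.628 against 3.24 and 4.12). Ddit4, which restrains growth signaling in hypoxia, was higher in cDC2 (0.284 and 0.327 against 1.04 and 0.878) and CD4 T cells (1.08 and 1.05 against 1.88 and 2.15). Within CD4 T cells, genes that hypoxia can raise were called in both directions, and the cause was not tested.

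The remaining genes were called in no cell type. Adm, a vessel-dilating peptide, had 239 UMIs in all gated cells and among the cell types could be tested in macrophages only (-0.43 ± 0.738). Aldoc was tested in 2 types, Ankrd37 in 4 and Pfkfb4 in 5, with adjusted p of at least 0.135, 0.495 and 0.199. Higd1a, a mitochondrial protein, had log2 fold changes of -0.24 to 0.63 in 11 types. Pfkfb3, which makes the activator of phosphofructokinase, was positive in 1 of 10 types, and Bnip3l in 2 of 10. Pdk1, which holds pyruvate back from the mitochondria, was positive in 3 of 7 types. Pgam1 ranged from -0.64 to 1.12 over 11 types.

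On GRCm38 the called genes lie at chr7:46841475-46855627 (Ldha, ENSMUSG00000063229), chrX:106187100-106203699 (Pgk1, ENSMUSG00000062070), chr11:120948480-120960868 (Slc16a3, ENSMUSG00000025161), chr17:46016993-46032369 (Vegfa, ENSMUSG00000023951), chr12:54178981-54203860 (Egln3, ENSMUSG00000035105), chr12:73901375-73947530 (Hif1a, ENSMUSG00000021109), chr15:66929318-66969640 (Ndrg1, ENSMUSG00000005125) and chr19:53310518-53375810 (Mxi1, ENSMUSG00000025025). All 8 are annotated as protein-coding, and their values are counts over the whole gene.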

How the data were processed

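CD45+ cells from 2 control skins and 2 skin tumors were measured, with 1 library each. The full genotype of the tumor model is not reported here. The authors ran Cell Ranger on mm10 and deposited its UMI counts, one for every gene in every cell, without normalization. The submitters' notes name version 7.1.0 and the file headers 7.0.1. The annotation and the handling of introns are not given in the sources used here. No label says whether replicates are separate mice, so p-values measure the spread between libraries, which may be technical.

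Cells with at least 100 genes, 1000 UMIs, a complexity (log10 of genes over log10 of UMIs) of 0.8 and at most 15% mitochondrial UMIs were kept. Scrublet (scanpy 1.11.5) scored doublets, and the top 1% of cells per 1000 cells was removed. The gated cells of a type were added up within each library, and the sums were compared by edgeR 4.0.16 (R 4.3.3, quasi-likelihood, TMM, filterByExpr). Cell types with at least 20 cells in every library were planned, and 5 types with 10 to 19 in some library were added after seeing the data. ILC2 also lay in this range and were not added. Positions came from GENCODE on GRCm38, which held 30934 of 31053 identifiers. Promoters came from RefSeq (GRCm38.p6). Scripts were tested on simulated data.

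Alternatives were median-of-ratios size factors, DESeq2 1.42.0, no filter on low counts, a replicate block, other cell filters, doublets kept, stricter gates, cycling cells left out and each library left out. The genes and lists were chosen with earlier results of these data known. The naming rule was to account for all 32 genes and to give values in every library for called pairs, and among other pathway genes to name those called in at least 2 cell types. The further values at an unadjusted p under 0.05 and the levels across cell types were chosen after their values were seen.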

Additional observations from a re-analysis of the deposited data

Results flagged for a closer look

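The tumor effect on Ldha in CD4 T cells and in macrophages differed by -1.54 on the log2 scale, in a test of the difference itself. It was singled out because the effects in these cell types differed by that test, and the value was lower in CD4 T cells. It was 1 of 31 genes tested in that pair of cell types, and adjusted p values over the alternatives ran from 0.0221 to 0.128.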

How the results depend on the processing

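Among called values, the sign turned for Hk2 (0.03) and Pgam1 (-0.03) in all gated cells with each cell type given the same weight, where 10 of 12 kept it, and in no other alternative. A call was lost with its direction kept in 81 cases, and with the mean over cells in place of the ratio of sums 7 of 18 levels moved by over 1 SD. Counts of the 32 genes called, leaving out 1 library at a time, ranged from 0 to 4 in macrophages, 0 to 2 in monocyte-like cells, 0 to 11 in cDC2, 0 to 4 in CD8 T cells, 0 to 2 in CD4 T cells, 1 to 3 in Treg, 0 to 4 in cDC1, 0 to 1 in mDC, 0 to 1 in neutrophils, 0 to 4 in mast cells, 0 to 1 in NK cells and 1 to 12 in all gated cells. The other pathway genes ranged from 0 to 0 in macrophages, monocyte-like cells and neutrophils, 0 to 7 in cDC2, 4 to 10 in CD8 T cells, 1 to 3 in CD4 T cells, 1 to 3 in Treg, 0 to 2 in cDC1, 0 to 2 in mDC, 0 to 2 in mast cells, 0 to 1 in NK cells and 9 to 18 in all gated cells. Genes of the 32 that differed from macrophages ranged from 0 to 1 in cDC2, 0 to 5 in CD8 T cells, 0 to 4 in CD4 T cells, 0 to 4 in Treg, 0 to 4 in cDC1, 0 to 2 in mDC and 0 to 3 in NK cells, and were 0 in the other types. No share of all genes stands beside these counts, which come from fits with 1 library left in a group. The cause was not tested.

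With no filter on low counts, 7 of the 32 genes were called in macrophages, 1 in monocyte-like cells, 9 in cDC2, 2 in CD8 T cells, 4 in cDC1 and 1 each in mDC, mast and NK cells, and the other pathway genes numbered 1 in monocyte-like cells, 6 in cDC2, 3 in cDC1, 2 in mDC, 1 in mast cells and 3 in NK cells. Eno1, which is uncertain, was among those called without the filter in macrophages, cDC2 and CD8 T cells. DESeq2 called 2 of the 32 in macrophages and 1 in CD4 T cells, and 0 other genes in cDC1 and NK cells. With cells of at least 500 UMIs, 2 were called in CD4 T cells and 2 in cDC1, other genes were 5 in cDC2, 3 in cDC1 and 1 in mast cells, and differences from macrophages were 0 in CD4 T cells, 1 in cDC1 and 1 in NK cells. With cycling cells left out, 1 was called in macrophages, 1 in CD4 T cells and 1 in NK cells, other genes were 3 in CD4 T cells, 2 in Treg, 1 in mast cells and 0 in NK cells, and differences were 1 in CD8 T cells and 2 each in CD4 T cells, Treg and NK cells. With doublets kept, 2 were called in CD4 T cells, other genes were 2 in Treg and 1 in mast cells, and differences were 0 in CD4 T cells and 1 in Treg. Median-of-ratios size factors gave 3 other genes in CD4 T cells, 1 in mast cells and 1 difference in Treg. Stricter gates gave 1 of the 32 in cDC2 and 2 in CD8 T cells, and 3 other genes in CD4 T cells, 1 in mast cells and 0 in NK cells. Stricter gates and leaving out cycling cells could not be run in cDC1 and mDC, which had too few cells. No share of all genes called is given for these alternatives or for the replicate block. Their counts are therefore not a result about the 32 genes.

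Samples with the same replicate number did not deviate together over all genes (correlations of -0.111 to 0.057 over the fits). With only 1 difference between libraries per group, this check cannot show whether they share a batch. With the replicate block, 1 of the 32 genes was called in macrophages, 2 in CD4 T cells, 0 in cDC1, 1 in mDC and 1 in NK cells, and the other genes numbered 1 in monocyte-like cells, 0 in cDC1, 1 in mDC and 4 in NK cells.

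The limits are 2 libraries a group, 10 to 66 cells per library in the smallest type and few UMIs for genes such as Adm and Aldoc, for which differences were mostly not testable at this depth.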
